A study of Rattus norvegicus with 12 samples.

Results

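The genes described here are 5 genes of the defence against reactive oxygen species, *Nfe2l2*, *Hmox1*, *Nqo1*, *Cat* and *Sod2*, among 15920 genes measured in NRVM, neonatal rat ventricular myocytes. They were chosen by name, through the identifiers ENSRNOG00000001548 (*Nfe2l2*), ENSRNOG00000014117 (*Hmox1*), ENSRNOG00000012772 (*Nqo1*), ENSRNOG00000008364 (*Cat*) and ENSRNOG00000019048 (*Sod2*), and all 5 were in the table. The rule uses no measured value, although it was set with earlier results of these data known, and all 5 passed the minimum mean normalized count of 10 that 14312 genes passed. Under THZ1 alone all 5 genes rose against baseline, where 25.8% of all genes tested were called higher and 51.9% were called in either direction. That share depended on the scaling: 3693 of the 14312 genes were called higher with the deposited scaling and 5922 with libraries scaled to equal totals. Under PE, where 55.2% of all genes tested were called, *Sod2* rose by 45.0%, *Nqo1* by 24.0% and *Nfe2l2* by 11.1%. *Cat* fell by 21.9%, and *Hmox1* did not pass the test. The rises of *Nqo1* and *Nfe2l2* did not pass with equal totals, nor did that of *Nfe2l2* with quantile normalization. With THZ1 and PE together, against PE without THZ1, 61.7% of all genes tested were called. There *Nqo1* was higher by 51.9%, *Hmox1* by 46.4%, *Cat* by 18.3% and *Nfe2l2* by 10.8%. The difference of *Sod2* was 2.45% and did not pass the test with the deposited scaling. *Sod2* was called higher with equal totals and with quantile normalization.

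NRVM are primary heart muscle cells, here from Sprague Dawley pups of postnatal day 2 to 3, depleted of nonmyocytes by preplating and BrdU and kept in serum-free medium before treatment. The study asked how the CDK7 inhibitor THZ1 changes the response of these cells to PE (phenylephrine), an α1-adrenergic agonist that drives hypertrophic growth in culture. The libraries form 4 groups of 3: baseline (vehicle), PE (100 µM PE), PE + THZ1 (100 µM PE and 10 nM THZ1) and THZ1 alone (10 nM THZ1). By the methods of the study, inhibitor or vehicle was given 3 h ahead of PE. Treatment lasted 48 h by the sample labels, whereas the table's column headings for the 6 libraries given PE read 24 h. THZ1 binds CDK7 covalently and also inhibits CDK12 and CDK13, kinases that act on RNA polymerase II, so it is not an inhibitor of CDK7 only. The cells were not genetically altered. In bulk RNA a change in the share of a cell type and a change in RNA per cell cannot be told apart, and the cell type was not checked against marker genes, since the table holds identifiers that could not be paired with symbols. No source used here says whether the 3 libraries of a group came from separate cell preparations, so the p-values measure the spread between these libraries, which may be technical.

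The cell stress sensor KEAP1 holds NRF2, the transcription factor encoded by *Nfe2l2*, in the cytoplasm and directs its degradation. Oxidants and electrophiles release NRF2, which then binds antioxidant response elements of its target genes. *Hmox1* (heme oxygenase 1, which breaks down heme) and *Nqo1* (NAD(P)H quinone dehydrogenase 1, which reduces quinones) are widely used as readouts of NRF2. *Sod2* encodes the manganese superoxide dismutase of mitochondria, which turns superoxide into hydrogen peroxide, and *Cat* encodes catalase, which breaks down hydrogen peroxide, mostly in peroxisomes. NRF2 is controlled largely through the stability of its protein, so the mRNA of *Nfe2l2* is not a measure of NRF2 activity, and neither protein levels nor reactive oxygen species were part of these libraries.

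RefSeq promoters of the rat build GRCr8 were at hand for 4 of the 5 genes, *Nfe2l2*, *Nqo1*, *Cat* and *Sod2*, and are shown here. Among these 4, *Cat* fell under PE and the others rose. A link between promoter sequence and these changes was not tested. All 4 genes lie on the minus strand, and the 250 bases before the start of each gene are written 5′ to 3′ along the gene. Capitals mark 3 motifs searched on both strands, namely the core of the antioxidant response element (TGACNNNGC or TGAGNNNGC), CCAAT and the GC box GGGCGG, and overlapping matches run together.
*Nfe2l2* (chr3:81029000-81029249): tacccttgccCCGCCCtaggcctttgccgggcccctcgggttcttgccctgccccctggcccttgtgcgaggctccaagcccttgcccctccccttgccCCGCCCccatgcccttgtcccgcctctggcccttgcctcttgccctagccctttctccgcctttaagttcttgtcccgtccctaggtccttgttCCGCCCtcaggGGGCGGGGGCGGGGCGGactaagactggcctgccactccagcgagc
*Nqo1* (chr19:52220268-52220517): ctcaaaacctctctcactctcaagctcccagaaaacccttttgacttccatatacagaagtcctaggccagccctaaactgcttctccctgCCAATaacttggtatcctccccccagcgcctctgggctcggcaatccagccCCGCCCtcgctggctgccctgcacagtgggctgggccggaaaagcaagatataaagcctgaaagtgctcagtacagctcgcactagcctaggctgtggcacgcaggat
*Cat* (chr3:110329527-110329776): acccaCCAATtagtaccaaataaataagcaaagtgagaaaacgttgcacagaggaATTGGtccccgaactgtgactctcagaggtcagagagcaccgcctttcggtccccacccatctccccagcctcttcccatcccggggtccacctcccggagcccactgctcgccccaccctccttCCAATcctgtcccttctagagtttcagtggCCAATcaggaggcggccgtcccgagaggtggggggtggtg
*Sod2* (chr1:50050169-50050418): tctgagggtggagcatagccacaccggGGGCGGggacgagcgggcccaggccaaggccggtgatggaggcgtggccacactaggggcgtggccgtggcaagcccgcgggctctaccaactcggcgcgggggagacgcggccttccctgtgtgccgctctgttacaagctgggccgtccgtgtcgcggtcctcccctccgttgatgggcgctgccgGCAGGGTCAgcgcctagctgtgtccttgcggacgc

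The 4 windows held different letters. That of *Sod2* held the only match to the antioxidant response element core, TGACNNNGC on the reverse strand, 35 to 27 bases before the gene start, together with 1 GC box. That core was present in 10.1% of 33469 promoter windows of the same length, the second form TGAGNNNGC in 14.2%, and either form in 22.8%. The window of *Cat* held 4 CCAAT boxes, a number reached by 0.565% of all windows, whereas 34.0% held at least 1. The window of *Nfe2l2* held 6 GC boxes, 3 of them overlapping or adjoining, and 0.825% of all windows held as many, whereas 30.5% held at least 1. The window of *Nqo1* held 1 CCAAT box and 1 GC box and no antioxidant response element core. GC content was 69.2% for *Nfe2l2*, 56.4% for *Nqo1*, 58.8% for *Cat* and 71.6% for *Sod2*, beside a median of 51.2% over all windows. The shares of windows with a motif were not worked out among windows of like GC content. A match is a run of letters and not a measured binding site, and longer windows were not searched.

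The libraries held between 30458862 and 45885754 reads on genes (median 35381325). Each gene measured had at least 1 read in every library. Genes without reads in some library are therefore not part of the shares of all genes given here. The values are normalized counts, that is, reads on a gene divided by the size factor of the library, and differences between groups are log2 changes of the normalized count + 1 with their SE, tested with limma and adjusted over all 14312 genes by the Benjamini-Hochberg method. A gene is called where the adjusted p is below 0.05. Every scaling used sets a gene against the other genes of its library. A rise or fall is therefore relative and not a measured change in mRNA per cell. The 5 genes were well covered, with 1061 reads in a library at the least (*Hmox1*) and 12781 at the most (*Sod2*), so that counting error was at most 3.07% of a value. The replicates of a group varied by 1.09% to 11.4% (SD over mean), and the largest of these spreads belonged to *Hmox1* under PE. The sums of normalized counts differed between the groups, at 33763048 ± 587361 in PE + THZ1, 34184256 ± 470200 in THZ1 alone, 37972984 ± 1917353 at baseline and 40369779 ± 130940 in PE (SD, n = 3 each). Scaling the libraries to equal totals shifted the median change of all genes by 0.26 for PE + THZ1 against PE, 0.15 for THZ1 alone, 0.17 for PE + THZ1 against baseline, 0.11 for the interaction and -0.09 for PE, all in log2. Baseline replicate 2 stood apart, with a chi-square per degree of freedom over genes of 54.0 and 57.4 against the other baseline libraries, which differed from each other by 6.21. No 2 libraries of the same group agreed within sampling noise.

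*Nfe2l2*, the gene of the transcription factor, rose in small steps through the groups. Its normalized counts in replicates 1 to 3 were 6186, 6187 and 6399 at baseline and 6834, 7019 and 7006 under PE. They were 6883, 7361 and 7180 under THZ1 alone and 7630, 7872 and 7617 under PE + THZ1. All baseline libraries lay below every treated library, all PE + THZ1 libraries lay above every other library, and PE and THZ1 alone overlapped. The means were 6257 ± 123 at baseline, 6953 ± 103 under PE, 7141 ± 241 under THZ1 alone and 7707 ± 144 under PE + THZ1 (SD, n = 3).

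*Hmox1*, the heme-degrading enzyme, was at 1314, 1317 and 1208 normalized counts at baseline and at 1429, 1183 and 1176 under PE. Under PE + THZ1 it was at 1903, 1881 and 1760, and under THZ1 alone at 1895, 2283 and 1959. The libraries thus lay in a lower set, baseline and PE, and a higher set, the groups given THZ1, and the groups overlapped within each set. The means were 1280 ± 61.9 at baseline, 1263 ± 144 under PE, 1848 ± 76.9 under PE + THZ1 and 2046 ± 208 under THZ1 alone (SD, n = 3).

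*Nqo1*, the quinone reductase, was at 1302, 1576 and 1365 normalized counts at baseline, where replicate 2 was the highest library, and at 1721, 1863 and 1675 under PE. It was at 1850, 2230 and 2041 under THZ1 alone and at 2782, 2735 and 2473 under PE + THZ1. PE + THZ1 was above all other libraries and baseline below all others, while PE and THZ1 alone overlapped in the range of 1850 to 1863. The means rose from 1414 ± 143 at baseline to 1753 ± 98.0 under PE, 2040 ± 190 under THZ1 alone and 2663 ± 167 under PE + THZ1 (SD, n = 3).

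*Cat*, catalase, was at 8388, 7366 and 8219 normalized counts at baseline, where replicate 2 was the lowest library. It was at 6314, 6185 and 6212 under PE, at 7433, 7113 and 7581 under PE + THZ1 and at 9364, 9066 and 8720 under THZ1 alone. PE held the 3 lowest and THZ1 alone the 3 highest libraries, and PE + THZ1 overlapped baseline only through baseline replicate 2. The means were 7991 ± 548 at baseline, 6237 ± 68.0 under PE, 7376 ± 239 under PE + THZ1 and 9050 ± 323 under THZ1 alone (SD, n = 3).

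*Sod2*, the mitochondrial superoxide dismutase, was at 7148, 7990 and 6972 normalized counts at baseline, replicate 2 being the highest. It was at 9236, 9603 and 9585 under THZ1 alone, at 10494, 10527 and 11037 under PE and at 10840, 10915 and 11088 under PE + THZ1. Baseline was lowest and THZ1 alone lay between it and the groups given PE, which overlapped each other. The means were 7370 ± 544 at baseline, 9475 ± 207 under THZ1 alone, 10686 ± 304 under PE and 10947 ± 127 under PE + THZ1 (SD, n = 3).

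**Figure D1:**
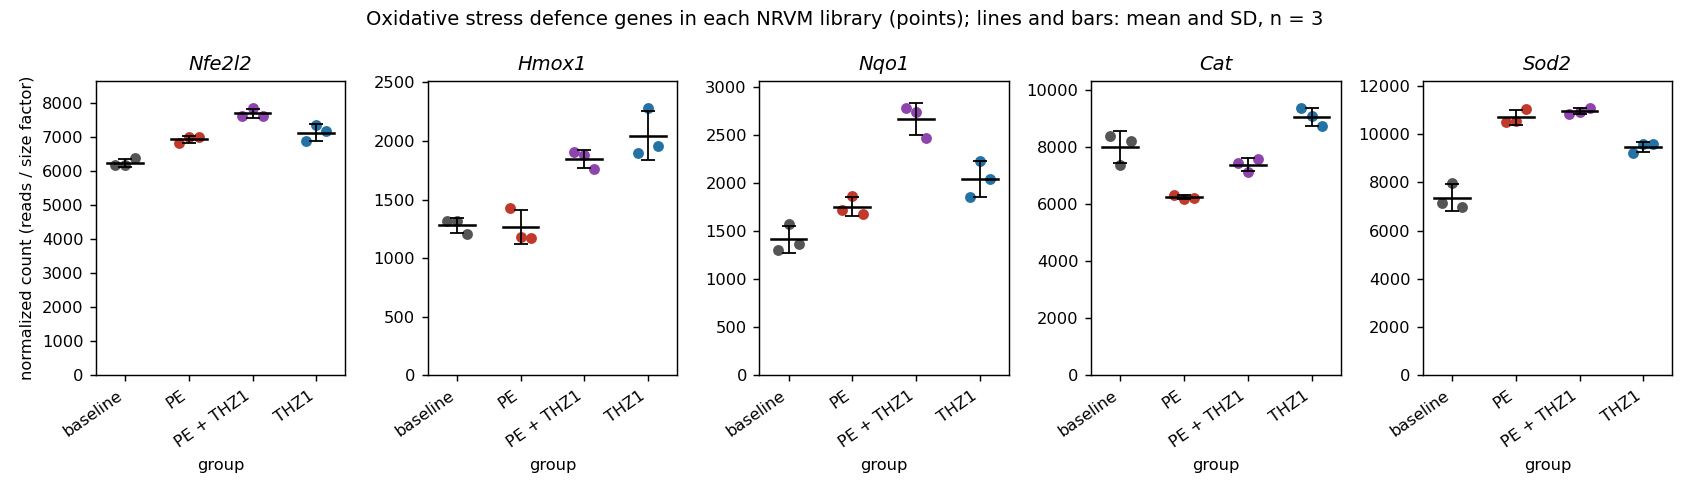
Normalized counts (y axis, from 0) of the 5 genes, 1 panel a gene, in baseline, PE, PE + THZ1 and THZ1 alone (x axis); points are libraries, the line is the mean and the bar 1 SD (n = 3). *Cat* is lowest under PE and highest under THZ1 alone, whereas *Sod2* is lowest at baseline and highest in both groups given PE.

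The first comparison asked which of these genes respond to the hypertrophic agonist, PE against baseline. Of the 5 genes, 4 were called, 3 higher and 1 lower, where 55.2% of all genes tested were called, 30.1% higher and 25.1% lower. *Sod2* rose by 0.54 (SE 0.05, limma adjusted p = 4.3e-08), a change larger than that of 80.3% of genes tested. *Cat* fell by 0.36 on the log2 scale (SE 0.05, adjusted p = 8.1e-06). The mRNAs of *Sod2* and *Cat* thus moved in opposite directions, in all 3 libraries of each group. Their enzymes make and remove hydrogen peroxide, but protein was not measured and other genes of these steps could not be named. *Nqo1* rose by 0.31 (SE 0.08, adjusted p = 0.0020) and *Nfe2l2* by 0.15 (SE 0.04, adjusted p = 0.0028). *Hmox1* differed by -0.02 (95% interval -0.19 to 0.14, adjusted p = 0.81), and its libraries overlapped. The libraries of the other 4 genes did not overlap, as was the case for 57.0% of all genes tested. The calls of the smaller changes depended on the scaling: with equal library totals *Nfe2l2* was at 0.063 (adjusted p = 0.29) and *Nqo1* at 0.22 (adjusted p = 0.057), and with quantile normalization *Nfe2l2* was at 0.038 (adjusted p = 0.42). Without baseline replicate 2, *Nqo1* was at 0.39, *Cat* at -0.41 and *Sod2* at 0.60, and the calls were as before. The share of calls that were higher with PE was 54.5% with the deposited scaling and 37.4% with equal totals.

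The second comparison, PE + THZ1 against PE, asked how THZ1 changes these genes in stimulated cells. It called 4 of the 5 genes, all higher, beside 61.7% of all genes tested, 30.4% higher and 31.3% lower. *Nqo1* rose by 0.60 (SE 0.08, limma adjusted p = 2.0e-06) and *Hmox1* by 0.55 (SE 0.08, adjusted p = 6.8e-06), changes larger than those of 77.3% and 74.4% of genes tested. *Cat* rose by 0.24 (SE 0.05, adjusted p = 0.00032), so that its mean under PE + THZ1 lay between those of PE and baseline. *Nfe2l2* rose by 0.15 (SE 0.04, adjusted p = 0.0028). *Sod2* differed by 0.04 (95% interval -0.06 to 0.13, adjusted p = 0.53). No libraries overlapped for the 4 called genes, which was the case for 69.2% of all genes tested. With equal library totals *Sod2* was called at 0.29 (adjusted p = 0.00079), and with quantile normalization at 0.25 (adjusted p = 0.00021). With equal totals *Nfe2l2* stood at 0.41 and *Cat* at 0.50, and with quantile normalization at 0.31 and 0.39. Less the median change of all genes, *Sod2* was at 0.03 with the deposited scaling and with equal totals, which move every gene of a library alike, and at 0.20 with quantile normalization, which does not. The share of calls in this comparison that were higher was 49.3% with the deposited scaling and 77.2% with equal totals.

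The third comparison, THZ1 alone against baseline, asked what the inhibitor did in unstimulated cells. All 5 genes were called higher without overlap of their libraries, where 51.9% of genes tested were called, 25.8% were called higher, 26.1% were called lower and 55.1% did not overlap. *Hmox1* rose by 0.67 (SE 0.08, limma adjusted p = 1.4e-06), more than 89.1% of genes tested. *Nqo1* rose by 0.53 (SE 0.08, adjusted p = 1.6e-05) and *Sod2* by 0.36 (SE 0.05, adjusted p = 5.6e-06). The rises of *Nfe2l2*, 0.19 (SE 0.04, adjusted p = 0.00050), and *Cat*, 0.18 (SE 0.05, adjusted p = 0.0045), were the smallest of the 5. All 5 calls held with equal totals, where *Nfe2l2* was at 0.34 and *Cat* at 0.33, and with quantile normalization, where *Cat* was at 0.29. The share of calls that were higher in this comparison was 49.7% with the deposited scaling and 72.5% with equal totals. Among the 14312 genes tested, 3693 were called higher with the deposited scaling and 5922 with equal totals. Without baseline replicate 2 the rise of *Cat* was 0.12 (adjusted p = 0.012).

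**Figure D2:**
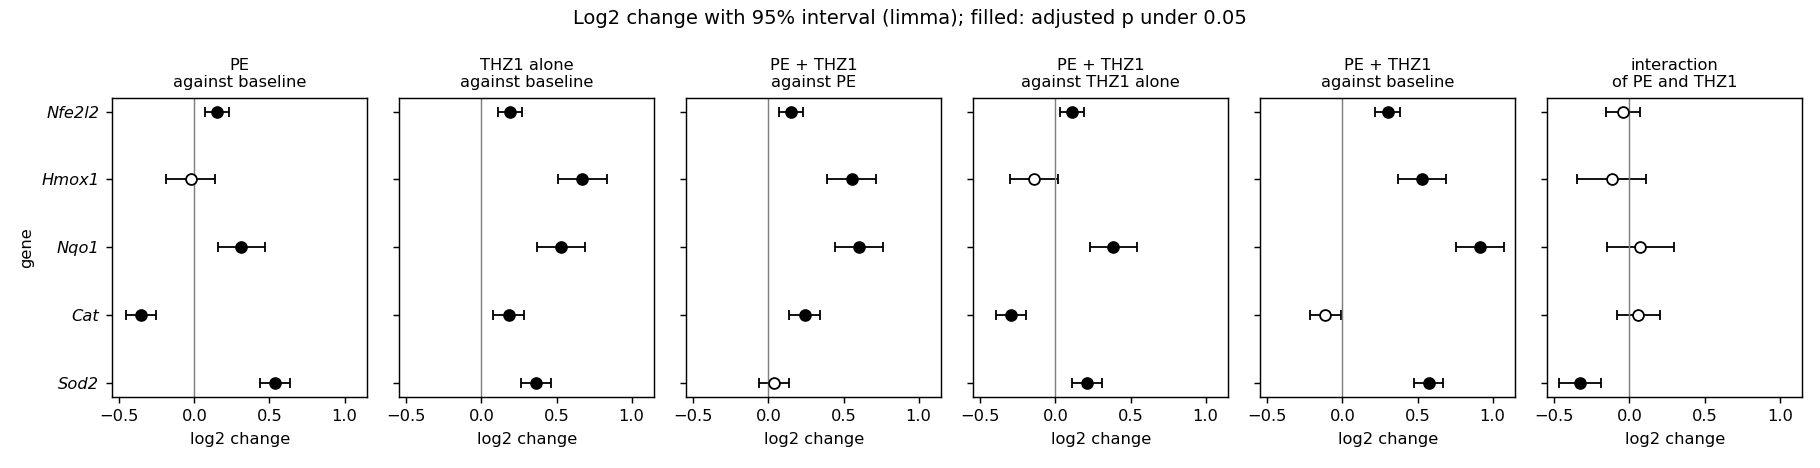
Log2 change (x axis) of each gene (y axis) with its 95% interval in the 6 comparisons; filled points passed an adjusted p of 0.05 and open points did not. All 5 points of THZ1 alone against baseline lie above 0, and *Cat* under PE lies at -0.36.

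The remaining comparisons placed the combined treatment against baseline and against THZ1 alone. Both share libraries with the comparisons above and are not independent of them. Against baseline, PE + THZ1 raised 4 of the 5 genes, where 54.1% of all genes were called, 26.7% higher and 27.4% lower. The libraries of these 4 genes did not overlap, as for 56.8% of all genes. *Nqo1* was raised by 0.92 (SE 0.08, limma adjusted p = 2.5e-08), an increase of 88.3% in the mean, and this change exceeded that of 94.0% of genes tested. *Sod2* was raised by 0.57 (adjusted p = 2.4e-08), *Hmox1* by 0.53 (adjusted p = 1.8e-05) and *Nfe2l2* by 0.30 (adjusted p = 4.6e-06). *Cat* differed by -0.11 (95% interval -0.22 to -0.01, adjusted p = 0.056). Its test depended on 1 library: without baseline replicate 2 it was at -0.17 (adjusted p = 0.00092). With equal totals *Cat* was at 0.055 (adjusted p = 0.27) and *Nfe2l2* at 0.47. The share of calls that were higher was 49.4% here and 74.3% with equal totals.

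Against THZ1 alone, PE + THZ1 differed in 4 of the 5 genes, 3 higher and 1 lower, where 24.3% of all genes were called, 12.6% higher and 11.7% lower. *Nqo1* was higher by 0.39 (SE 0.08, limma adjusted p = 0.0011) and *Sod2* by 0.21 (SE 0.05, adjusted p = 0.0035), and *Cat* fell by 0.29 on the log2 scale (SE 0.05, adjusted p = 0.00023). These 3 genes moved in the same direction as under PE without the inhibitor. *Hmox1* differed by -0.14 (adjusted p = 0.20) and its libraries overlapped, whereas those of the other 4 genes did not, as for 45.1% of all genes. *Nfe2l2* was at 0.11 (SE 0.04, adjusted p = 0.045), close to the threshold, and leaving out any of 7 of the 12 libraries ended its call, with values between 0.084 and 0.12 and adjusted p between 0.058 and 0.20. Those libraries were PE replicates 2 and 3, PE + THZ1 replicates 1, 2 and 3, and THZ1 alone replicates 1 and 3.

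The last comparison asked whether the effect of THZ1 differed between stimulated and unstimulated cells, as the interaction of PE and THZ1 (the THZ1 effect under PE less that without PE). *Sod2* was the only gene of the 5 that passed, where 32.2% of all genes tested did, 13.9% above and 18.3% below 0. Its interaction was -0.33 (SE 0.07, 95% interval -0.47 to -0.19, limma adjusted p = 0.0011): THZ1 raised *Sod2* by 0.36 without PE, and the difference under PE was 0.04. With equal totals this interaction was -0.22 (adjusted p = 0.085), and with quantile normalization it was -0.21 (adjusted p = 0.030). Less the median of all genes it was -0.31 with the deposited scaling and with equal totals and -0.20 with quantile normalization. The interaction was -0.04 for *Nfe2l2* (adjusted p = 0.59), -0.12 for *Hmox1* (adjusted p = 0.43), 0.07 for *Nqo1* (adjusted p = 0.63) and 0.06 for *Cat* (adjusted p = 0.53). For *Hmox1* the 95% interval ran from -0.35 to 0.11 and for *Nqo1* from -0.15 to 0.30, so differences between the THZ1 effects within these intervals could not be told from 0. With equal totals the value of *Nfe2l2* was 0.066 and that of *Cat* was 0.17 (adjusted p = 0.043). The share of interaction calls that were above 0 was 43.2% with the deposited scaling and 73.2% with equal totals.

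**Figure D3:**
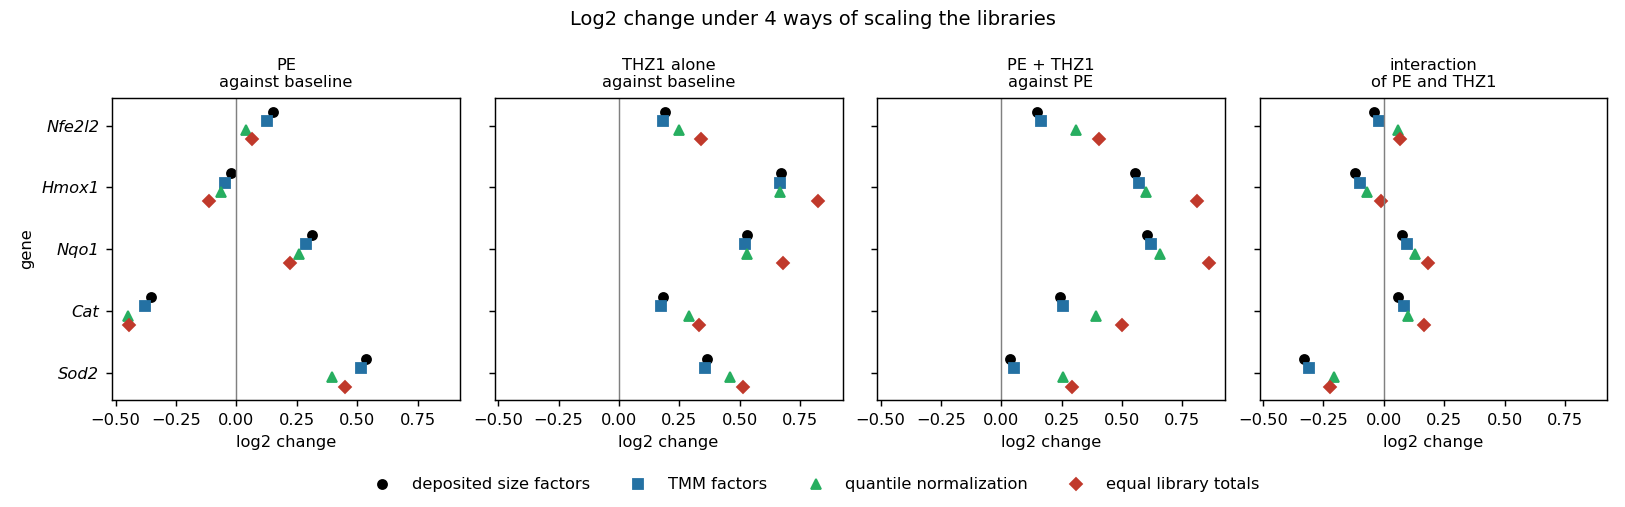
Log2 change (x axis) of each gene (y axis) under 4 scalings of the libraries (deposited size factors, TMM, equal totals, quantile) in 4 comparisons. *Sod2* in PE + THZ1 against PE moves from 0.04 with the deposited size factors to 0.29 with equal totals, while *Cat* under PE stays below 0 with each.

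Ratios of 2 genes within a library do not change when all its genes are divided by a common factor, as with size factors or equal totals. Quantile normalization can change them, and the ratios here use the deposited values. The 4 ratios used here were chosen after the values were seen and are given as descriptions, as log2 less the baseline mean, with no test. How often ratios of other gene pairs separate the groups was not worked out. Among single genes, 57.0% did not overlap for PE against baseline and 55.1% for THZ1 alone against baseline. The ratio of *Sod2* to *Cat* was 0.85, 0.88 and 0.95 in the PE libraries and -0.11, 0.23 and -0.12 in the baseline libraries, so it was 1.86-fold higher under PE. Under PE + THZ1 it was 0.66, 0.73 and 0.67, below each PE library and above each baseline library. Under THZ1 alone it was 0.10, 0.20 and 0.25 and overlapped baseline. The ratio was thus above baseline in both groups given PE.

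The ratios among the transcription factor gene and the 2 NRF2 readouts separated the treatments in another way. *Nqo1* over *Nfe2l2* was 0.16 ± 0.08 under PE, 0.34 ± 0.09 under THZ1 alone and 0.62 ± 0.08 under PE + THZ1 (SD, n = 3), around a baseline SD of 0.15. *Hmox1* over *Nfe2l2* was -0.18 ± 0.18 under PE, 0.23 ± 0.06 under PE + THZ1 and 0.48 ± 0.10 under THZ1 alone. Both ratios overlapped baseline under PE and lay above it in both groups given THZ1. *Nqo1* over *Hmox1* was 0.34 ± 0.20 under PE and 0.39 ± 0.03 under PE + THZ1, without overlap with baseline, and -0.14 ± 0.05 under THZ1 alone, which overlapped baseline. *Nqo1* was thus higher relative to *Hmox1* in each of the 6 libraries given PE than in any of the 6 without it, by a narrow margin for PE replicate 1 (0.13) against baseline replicate 2 (0.12).

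**Figure D4:**
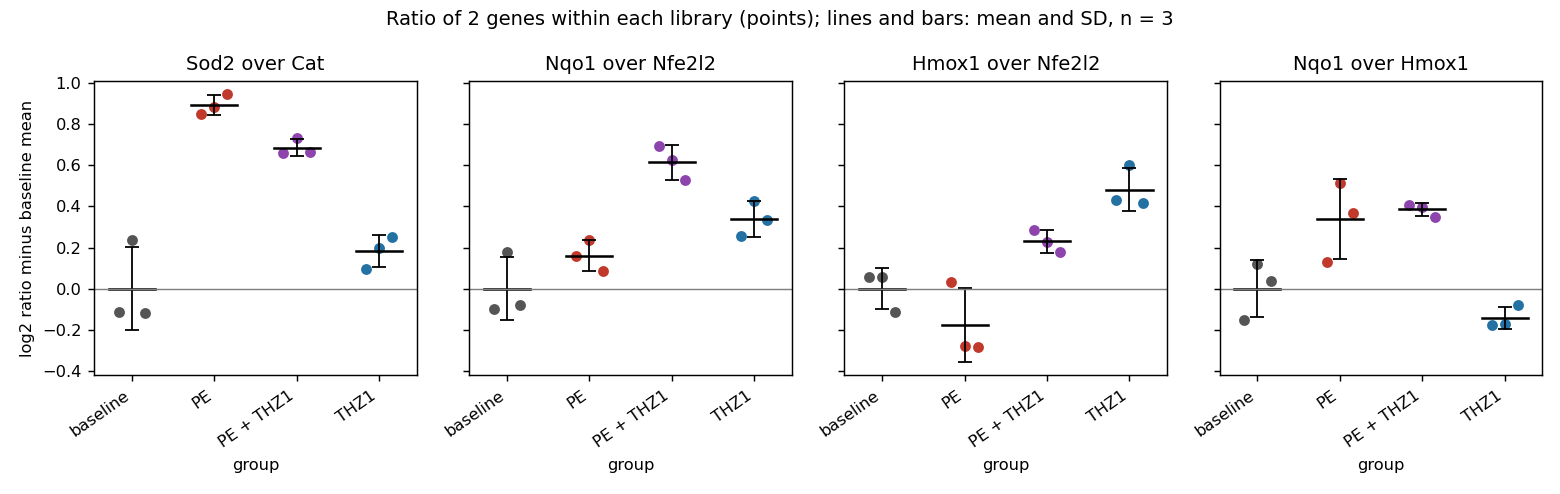
Log2 ratio of 2 genes within each library less the baseline mean (y axis) for 4 ratios in the 4 groups (x axis); points are libraries, lines are means and bars are 1 SD (n = 3). The ratio of *Sod2* to *Cat* is 0.89 under PE, 0.69 under PE + THZ1 and 0.18 under THZ1 alone.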

How the data were processed

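RNA-seq of 12 NRVM libraries was grouped by the sample titles. Per the labels and methods, the authors used TopHat2 2.1.1 for alignment to rn5, HTSeq for stranded counting on genes and DESeq2 for size factors, by which reads were divided; the deposited values are this never-negative signal of normalized counts. A column of the authors' gene clusters was not used. Reads were recovered from the steps of the values, 100% whole within 0.01. Genes with a mean of at least 10 were put on the log2(normalized count + 1) scale and tested two-sided with limma 3.58.1 (R 4.3.3), using 1 model of the 12 libraries and a trended prior variance, with Benjamini-Hochberg adjustment over 14312 genes. The log2(value + 1) scale slightly understates changes of low genes. On the recovered reads edgeR 4.0.16 called 7862 genes for PE against baseline, 8789 for PE + THZ1 against PE and 7537 for THZ1 alone, and DESeq2 1.42.0 called 7370, 8338 and 7060. Other alternatives concerned the pseudocount, minimum mean, scaling, variance model and single libraries. Motif searches and figures used Python 3.11.15 (numpy 2.4.6, pandas 2.3.3, matplotlib 3.10.9).

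The genes and lists were chosen with earlier results of these data known. The 5 genes were always named, and other genes were to be named from 11 pathway lists (146 symbols) and 6 cell type marker lists (41 symbols). As 0 of 15920 identifiers matched a symbol among 47357 reference entries, these lists gave no values, and the cell type was not checked against its markers. No coordinates of rn5 were used. The script was tested on simulated data.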

Additional observations from a re-analysis of the deposited data

Results flagged for a closer look

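*Sod2* was the only one of the 5 genes for which the effect of THZ1 differed between cells with and without PE by a test of the difference itself (interaction -0.33, SE 0.07, limma with Benjamini-Hochberg adjustment, adjusted p = 0.0011), where 32.2% of all genes tested passed it. Its 3 libraries under THZ1 alone lay above the 3 baseline libraries without overlap, as for 55.1% of all genes tested, whereas its PE + THZ1 and PE libraries overlapped. Equal totals moved the median interaction of all genes by 0.11 and left *Sod2* at -0.22 (adjusted p = 0.085). Quantile normalization gave -0.21 (adjusted p = 0.030). Without baseline replicate 2 the interaction of *Sod2* was at -0.39, and 42.7% of all genes tested then passed.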

How the results depend on the processing

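Of 355 values of the 5 genes under other settings, 337 kept their direction and their side of the threshold, as did 349 of 360 values with 1 library left out. Equal totals gave *Nfe2l2* at 0.063 and *Nqo1* at 0.22 for PE, *Sod2* at 0.29 for PE + THZ1 against PE, *Cat* at 0.055 for PE + THZ1 against baseline and *Nfe2l2* at 0.13 against THZ1 alone. The interactions with equal totals were 0.066 for *Nfe2l2*, 0.17 for *Cat* and -0.22 for *Sod2*. Quantile normalization gave *Nfe2l2* at 0.038 for PE, 0.094 for PE + THZ1 against THZ1 alone and 0.057 for the interaction, and *Sod2* at 0.25 for PE + THZ1 against PE. *Cat* in PE + THZ1 against baseline passed the threshold with TMM (-0.12, adjusted p = 0.040) and edgeR (-0.12, adjusted p = 0.042). *Nfe2l2* in PE + THZ1 against THZ1 alone, at 0.11 in each case, missed it with no minimum mean (adjusted p = 0.0503), TMM (0.051) and no trend in the prior variance (0.070). The adjusted p values quoted here are from limma or edgeR as named. Equal totals rescale whole libraries and so shift all genes of a comparison by about the same amount; the cause of the other differences was not tested.

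With single libraries left out, *Nfe2l2* in PE + THZ1 against THZ1 alone ran from 0.084 to 0.13, *Cat* in PE + THZ1 against baseline from -0.17 to -0.078, the interaction of *Nqo1* from -0.0067 (without baseline replicate 2) to 0.14, and *Hmox1* for PE from -0.12 to 0.024 (above 0 without PE replicate 2, at 0.020, or 3). Whether the replicate numbers pair the libraries was not settled. The deviations of libraries with the same number correlated at a mean r of 0.033 (-0.113 to 0.173, 18 pairs). Those with different numbers correlated at -0.017 (-0.209 to 0.143, 36 pairs). Of the 12 libraries, 5 correlated best with their own number, which 33.3% of the libraries in other groups carried. With the number as a replicate block, *Cat* in PE + THZ1 against baseline was at -0.11 (limma adjusted p = 0.036), no other call on the 5 genes changed, and 8071 genes were called for PE and 8945 for PE + THZ1 against PE. With the deposited scaling the 95% intervals were -0.19 to 0.14 for *Hmox1* under PE and -0.06 to 0.13 for *Sod2* in PE + THZ1 against PE. Changes within these intervals could not be told from 0. The intervals do not cover the choice of scaling: with equal totals this value of *Sod2* was 0.29.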
